A study of Homo sapiens with 8 samples.

Results

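The ephrin, semaphorin, netrin and slit guidance genes were examined in 2D human intestinal epithelial cells (hIECs), which had been differentiated from the human embryonic stem cell line H9. Members were the protein-coding genes whose symbol belongs to the Eph receptors, ephrins, semaphorins of classes 3 to 7, plexins, neuropilins, netrins, UNC5 receptors, slits or ROBO receptors. This symbol rule gave 68 of the 19957 protein-coding genes listed. The 8 bulk RNA-seq libraries fell into 4 groups of 2. Normal hIECs received neither agent. Normal hIECs with PM10 received particulate matter of the coarse class alone, inflamed hIECs received the pro-inflammatory cytokines IFNγ and TNFα, and PM10-treated inflamed hIECs received both. The labels give 10 days of treatment for every library, and the methods of the study describe cytokines at 50 ng/ml each for 10 days with PM10 at 100 μg/ml over the last 7. All groups came from the same stem cell line, and nothing states that paired libraries of a group were separate cultures, so p-values measure only the spread between these libraries, which may be technical. The comparisons asked what chronic cytokine treatment changed, what PM10 changed in normal and in inflamed hIECs, and whether the PM10 difference depended on the cytokines.

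Guidance genes encode ligands and receptors that steer axons and also set boundaries, adhesion and migration in epithelia and their stroma. Ephrins stay on the cell surface and signal in both directions with Eph receptors, and graded EPHB2 and EPHB3, which are targets of Wnt signalling, are known for positioning cells along the intestinal crypt. Semaphorins act through plexins, with neuropilins as co-receptors for most secreted class 3 members, netrins act through DCC, neogenin and UNC5 receptors, and slits act through ROBO receptors.

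Values were FPKM, fragments scaled by transcript length and by the mapped fragments of the library, so that levels can be compared between genes per length. Differences are on the log2(FPKM + 1) scale, which understates the change of genes at low FPKM. A gene was called when its adjusted p was under 0.05 in a limma fit over all 8 libraries and the 14206 genes that reached 1 FPKM in 2 or more of them. Of the 68 members, 61 were above 0 in some library and 55 were tested. EPHA8, EPHA10, SEMA3G, SEMA5B, NTN3, UNC5A and SLIT1 were listed at 0 in every library. EPHA5, EPHA6, SEMA4A, PLXNB3, NTN5 and ROBO4 were above 0 somewhere but stayed below the minimum. Of the tested members, 48 met the minimum with and without cytokines, while EPHB1 and PLXNA4 met it only through the cytokine-treated libraries and EPHA4, EPHB6, EFNA1, SEMA3B and UNC5D only through the others. The cytokine differences of these last 7 are given as descriptions, since a gene that met the minimum only where it was high had to differ. The libraries were not strand-specific and 22 of the tested members share exon sequence with another gene, so their reads cannot be told apart from that gene's, among them EPHA1 with ZYX, SEMA4G with MRPL43 and PLXNC1 with CEP83.

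The treatment labels were checked on genes outside the guidance families. CXCL10, an interferon-induced chemokine, stood below 2 FPKM in every library without cytokines and at 1254 to 1314 FPKM with them, and CYP1B1, a target of the aryl hydrocarbon receptor, rose from 5.95 to 6.91 FPKM in normal hIECs to 62.8 to 65.7 FPKM with PM10. CYP1B1 was also at 35.7 to 37.6 FPKM in inflamed hIECs and at 254 FPKM in both libraries with PM10 and cytokines. CYP1A1, also read as a check on PM10, did not reach the level needed for testing. It was at 0 FPKM in every library without PM10. With PM10 it was at 0 and 0.241 FPKM in normal hIECs and at 0.432 and 0.515 FPKM in inflamed hIECs. The epithelial label was checked against 12 markers, of which CDX2, VIL1, CLDN3, ESRP1 and GRHL2 were listed at 0 in all 8 libraries, CDH1 was above 0 in only 1, and EPCAM reached at most 0.622 FPKM. KRT8 and KRT18 carried that list's summed level, which was 598 to 652 FPKM without and 287 to 352 FPKM with cytokines. All 12 mesenchymal markers were present, with sums of 3715 to 4219 FPKM without and 4302 to 4907 FPKM with cytokines. These markers did not move together. With cytokines alone 5 were called higher and 6 lower, with a median difference of -0.16. With PM10 5 were also higher and 6 lower, with a median of -0.32. ACTA2 and TAGLN were among the higher and COL3A1 among the lower in both comparisons. Of 12 neuronal markers, ELAVL3, ELAVL4 and RBFOX3 were among those at 0 throughout, and the sum fell from between 357 and 412 FPKM to between 204 and 209 FPKM with cytokines. STMN2, NEFM, TUBB3 and NEFL carried most of that sum, STMN2 at 114 to 131 FPKM without and 52.5 to 64.8 FPKM with cytokines. Of the 8 tested, 5 were called lower with cytokines alone and 6 with PM10. These are 62.5% and 75.0%, beside 30.3% and 39.6% of all tested genes. SYT1 was higher in both comparisons. Of 10 endothelial markers, PECAM1, CDH5, KDR, VWF and CLDN5 were at 0 throughout, and the sums were 19.8 to 34.4 FPKM without and 5.43 to 9.70 FPKM with cytokines. The part of these cell types in the results was not tested, and in bulk RNA fewer cells of a type and less RNA per cell cannot be told apart. The share of FPKM from mitochondrial genes was 15.5% to 24.2% over the libraries, and the 2 normal libraries stood farthest apart, at 17.02% and 24.19%.

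Cytokines shifted most of the guidance genes. In inflamed against normal hIECs, 16 of the 55 tested members were higher and 27 were lower, or 29.1% and 49.1%, where over all tested genes 25.9% were called higher and 30.3% lower. In PM10-treated inflamed against PM10-treated normal hIECs, 16 were higher and 29 lower, against 25.8% and 39.6% of all genes. The share of members called higher was therefore near that of all genes in each comparison, and the share called lower was above it. Among the 48 members that met the minimum with and without cytokines, 14 were higher and 22 lower without PM10, or 29.2% and 45.8%, beside 26.3% and 28.1% of the 12457 such genes. With PM10 14 were higher and 24 lower, or 29.2% and 50%, beside 25.8% and 38.0%. The median member difference was -0.23 without PM10 and -0.24 with PM10, beside -0.03 and -0.11 over all tested genes. These comparisons contrast different libraries but take the spread of each gene from the same fit over all 8, so their calls are not independent. In both of them 14 members were called higher and 26 lower. That is 25.5% and 47.3% of those tested, against 20.9% and 27.4% of all genes. These counts include members that met the minimum only where they were high. They were EPHB1 and PLXNA4 among the higher and EPHA4, EPHB6, EFNA1, SEMA3B and UNC5D among the lower. The shares of all genes are not restricted in this way either. EFNB1 alone among the members was called in opposite directions, and 8 members were called in neither. Differences of at least 1 on the log2 scale were called for 7 members upward and 11 downward without PM10, where 4.05% and 5.12% of all genes reached that size. With PM10 they were called for 7 upward and 16 downward, where 5.28% and 7.64% of all genes did. EPHB6, EFNA1 and SEMA3B, which met the minimum only without cytokines, are in both downward counts. EPHB1, which met it only with cytokines, is in the upward count with PM10.

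**Figure D1:**
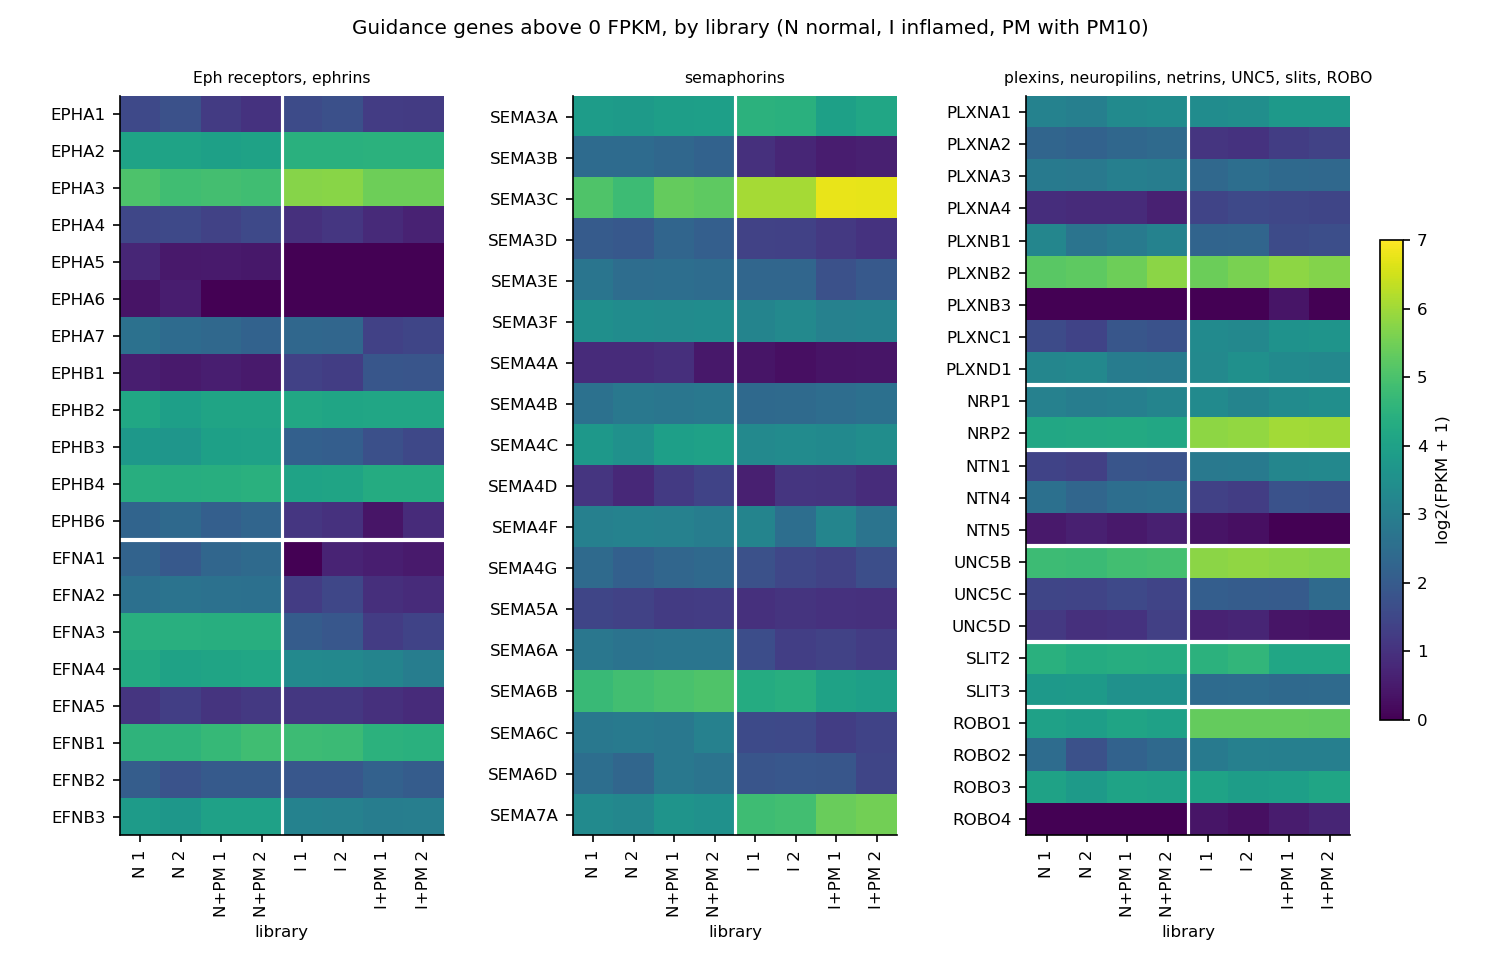
Heat map of log2(FPKM + 1) for the 61 guidance genes above 0 in any of the 8 libraries, one column for each library and genes ordered by family. Paler colours are higher values. EFNA3 is paler in the 4 libraries without cytokines and darker in the 4 with them, while SEMA7A, PLXNC1 and NRP2 show the opposite order.

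**Figure D2:**
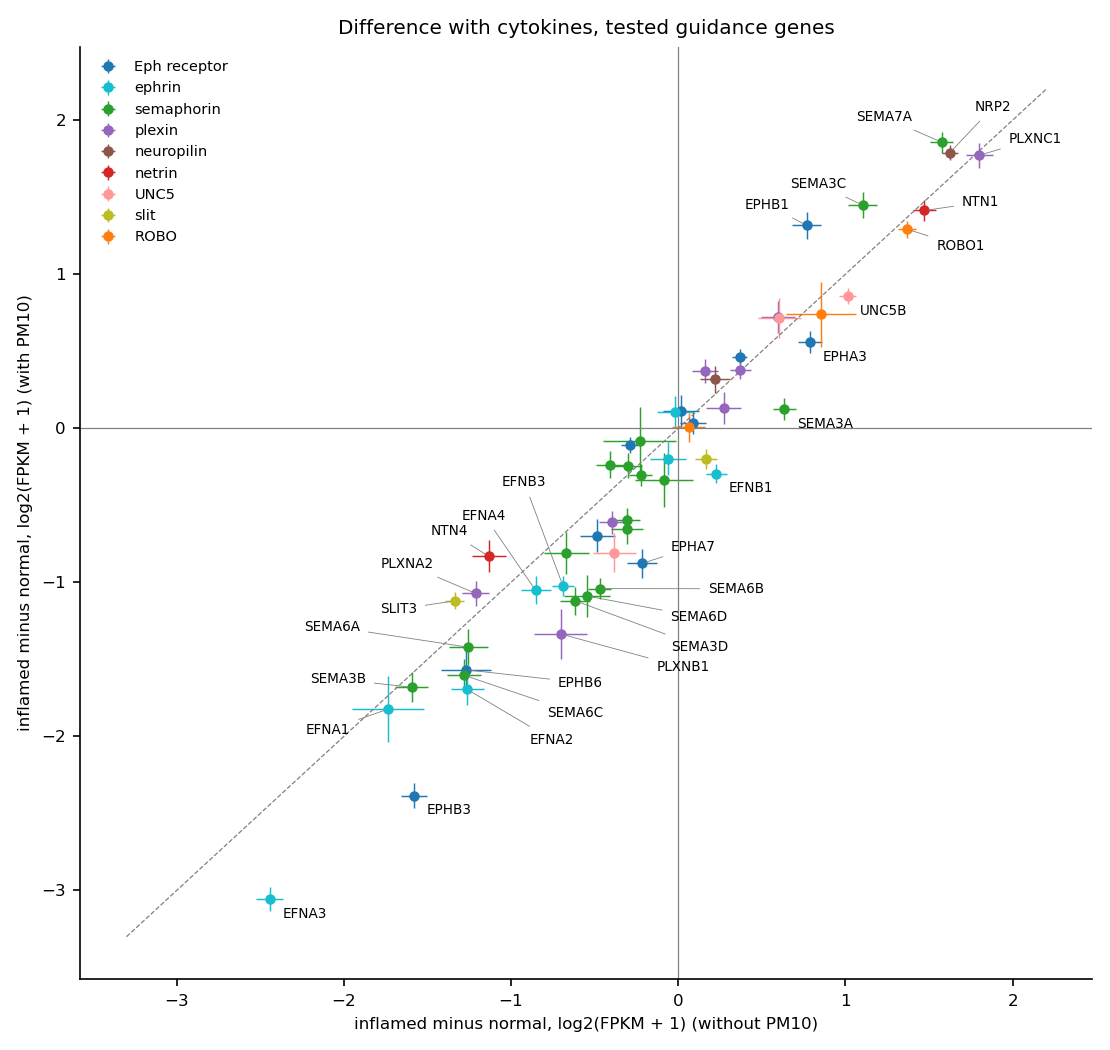
Difference with cytokines of the 55 tested guidance genes, without PM10 on the horizontal and with PM10 on the vertical axis, both on the log2(FPKM + 1) scale with bars of 1 SE. Most points lie near the dashed line of equality, with EFNA3 lowest at -2.44 and -3.06 and EFNB1 on opposite sides of 0.

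The promoter sequences of 4 genes with large differences are shown because they were the semaphorin and plexin that rose most and the ephrin and Eph receptor that fell most. They are 300 bases of RefSeq (GRCh38.p14), 5′ to 3′ on the strand of the gene, around the annotated start of transcription. Capitals mark matches on either strand to TTCNNNGAA (GAS, the gamma-activated site), GAAANNGAA (core of the interferon-stimulated response element), GGNNTTTCC (a form of the NF-kB site) or GCGTG (core of the aryl hydrocarbon receptor site). SEMA7A lies at chr15:74433909-74434208 on the minus strand, PLXNC1 at chr12:94148327-94148626, EFNA3 at chr1:155078587-155078886 and EPHB3 at chr3:184561535-184561834, each of these on the plus strand.
SEMA7A: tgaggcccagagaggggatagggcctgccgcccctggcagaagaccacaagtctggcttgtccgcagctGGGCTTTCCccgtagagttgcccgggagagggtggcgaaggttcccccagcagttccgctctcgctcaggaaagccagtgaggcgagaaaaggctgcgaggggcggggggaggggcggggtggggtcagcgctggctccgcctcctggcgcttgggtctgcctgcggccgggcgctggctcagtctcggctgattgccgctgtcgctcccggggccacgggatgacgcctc
PLXNC1: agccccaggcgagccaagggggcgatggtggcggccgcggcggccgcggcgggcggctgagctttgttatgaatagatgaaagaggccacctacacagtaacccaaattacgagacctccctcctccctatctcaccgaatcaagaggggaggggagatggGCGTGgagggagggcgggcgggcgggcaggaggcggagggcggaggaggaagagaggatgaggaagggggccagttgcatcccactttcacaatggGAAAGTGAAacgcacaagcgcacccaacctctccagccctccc
EFNA3: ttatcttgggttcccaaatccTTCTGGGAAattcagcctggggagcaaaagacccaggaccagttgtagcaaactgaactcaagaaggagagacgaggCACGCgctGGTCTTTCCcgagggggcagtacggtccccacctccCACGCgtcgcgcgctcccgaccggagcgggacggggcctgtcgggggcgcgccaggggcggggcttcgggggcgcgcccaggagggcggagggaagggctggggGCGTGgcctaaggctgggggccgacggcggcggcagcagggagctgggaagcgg
EPHB3: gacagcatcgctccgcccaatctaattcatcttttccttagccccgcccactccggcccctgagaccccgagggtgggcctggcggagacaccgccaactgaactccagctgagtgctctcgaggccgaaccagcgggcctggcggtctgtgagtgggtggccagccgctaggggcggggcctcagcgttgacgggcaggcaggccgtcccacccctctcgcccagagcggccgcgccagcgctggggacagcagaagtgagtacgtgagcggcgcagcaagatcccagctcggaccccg
SEMA7A held the NF-kB letters starting 181 bases before the start. PLXNC1 held the aryl hydrocarbon receptor core 89 bases before the start and the interferon response core 7 bases after it. EFNA3, which fell with cytokines, held 1 GAS match, 1 NF-kB match and 3 aryl hydrocarbon receptor cores. EPHB3 held none of these letters. Promoters were listed for 58 members, 90 in all. GAS letters were in 5.56% of member promoters and 7.66% of all 35116 promoters, interferon response letters in 5.56% and 8.11%, NF-kB letters in 4.44% and 6.26%, and the aryl hydrocarbon receptor core in 42.2% and 36.5%. A match describes letters only and is not a bound site.

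Among the Eph receptors, the kinases that read ephrins on neighbouring cells, 3 of 10 tested rose and 4 fell with cytokines alone. Over all tested genes, 25.9% were called higher and 30.3% lower in that comparison. EPHB1 among the higher met the minimum only with cytokines, and EPHA4 and EPHB6 among the lower only without them. EPHB3 was at 12.3 and 11.7 FPKM in the normal libraries, 14.8 and 15.2 FPKM with PM10, 3.43 and 3.28 FPKM in the inflamed libraries and 2.29 and 1.85 FPKM with both. The cytokine-treated libraries were all below the others, and the lowest were those that also received PM10. The difference was -1.58 without PM10 (SE 0.0798, limma adjusted p = 4.27e-06) and -2.38 with PM10 (SE 0.0798, adjusted p = 4.01e-07). EPHB6, a receptor without kinase activity, was at 3.74 and 4.23 FPKM in normal hIECs and 3.32 and 3.86 FPKM in PM10-treated normal hIECs, against 1.15 and 0.988 FPKM in inflamed hIECs and 0.325 and 0.804 FPKM in PM10-treated inflamed hIECs. It was lower in all 4 cytokine-treated libraries, with differences of -1.27 and -1.57 without and with PM10. EPHB1 moved the other way, at 0.498 and 0.417 FPKM (normal), 0.507 and 0.423 FPKM (normal with PM10), 1.55 and 1.42 FPKM (inflamed) and 2.68 and 2.61 FPKM (inflamed with PM10). Its libraries without cytokines were below 1 FPKM, and it differed by 0.77 without and 1.32 with PM10. EPHB2 was close to level over the groups, between 14.5 and 17.2 FPKM, and was not called in any comparison.

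The most abundant Eph receptor was EPHA3, at 32.2 and 27.7 FPKM in the normal libraries, 29.2 and 27.995 FPKM with PM10, 52.1 and 52.8 FPKM in the inflamed libraries and 42.6 and 42.6 FPKM with both. It was higher with cytokines in every library, by 0.79 without and 0.56 with PM10. EPHA2, a receptor common in epithelia, rose by 0.37 and 0.47. EPHA4 fell, with differences of -0.48 and -0.70. EPHA7 was at 5.13 and 4.501 FPKM in normal hIECs and 4.19 and 3.59 FPKM in PM10-treated normal hIECs, against 4.04 and 3.95 FPKM in inflamed hIECs and 1.58 and 1.74 FPKM in PM10-treated inflamed hIECs. The libraries with both agents were the lowest and the normal ones the highest, and the cytokine difference was called with PM10, at -0.88 (SE 0.0912, limma adjusted p = 1.16e-04), but not without it, at -0.22. EPHB4, a partner of EFNB2, was at 19.9 and 19.5 FPKM (normal), 19.8 and 20.95 FPKM (normal with PM10), 15.7 and 16.2 FPKM (inflamed) and 18.8 and 18.9 FPKM (inflamed with PM10). It was called lower with cytokines alone, with a difference of -0.29, and not called with PM10. EPHA1 was at 1.91 and 2.34 FPKM in the normal libraries, 1.305 and 1.05 FPKM with PM10, 2.02 and 2.29 FPKM in the inflamed libraries and 1.38 and 1.32 FPKM with both, and its libraries parted by PM10 rather than by cytokines.

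The ephrins, the membrane-bound ligands of these receptors, mostly fell. Of 8 tested, 5 were lower and 1 was higher with cytokines alone, and 6 were lower and none higher with PM10. The lower shares are 62.5% and 75.0%, beside 30.3% and 39.6% of all genes. They include EFNA1, which met the minimum only without cytokines. EFNA3 showed the largest difference of any member on the log2(FPKM + 1) scale, at 20.2 and 20.3 FPKM in the normal libraries, 20.1 and 19.8 FPKM with PM10, 3.07 and 2.74 FPKM in the inflamed libraries and 1.36 and 1.68 FPKM with both. The 4 libraries without cytokines lay close together, and the group mean was 6.94-fold lower with cytokines alone and 13.2-fold lower with PM10. On the log2 scale it differed by -2.44 without PM10 (SE 0.0786, limma adjusted p = 4.65e-07) and -3.06 with PM10 (SE 0.0786, adjusted p = 1.15e-07). EFNA2 was at 5.01 and 5.36 FPKM in normal hIECs and 5.07 and 4.95 FPKM in PM10-treated normal hIECs, against 1.36 and 1.82 FPKM in inflamed hIECs and 0.914 and 0.7997 FPKM in PM10-treated inflamed hIECs. EFNA4, whose locus also holds a readthrough transcript with EFNA3 that was listed at 0, was at 17.9 and 15.3 FPKM (normal), 15.8 and 16.7 FPKM (normal with PM10), 8.803 and 8.67 FPKM (inflamed) and 7.87 and 6.82 FPKM (inflamed with PM10). Neither gene overlapped between libraries with and without cytokines, and the differences were -1.26 and -1.70 for EFNA2 and -0.85 and -1.05 for EFNA4. EFNA1, a ligand of EPHA2, was at 3.66 and 2.88 FPKM in the normal libraries, 3.96 and 4.39 FPKM with PM10, 0 and 0.627 FPKM in the inflamed libraries and 0.512 and 0.413 FPKM with both. It was listed at 0 in 1 inflamed library and below 1 FPKM in every cytokine-treated library, with a group mean 10.4-fold lower with cytokines alone and 9.01-fold lower with PM10. EFNA5 was not called. Summed over the 5 ephrin-A genes, levels were 45.3 to 47.9 FPKM without cytokines and 10.5 to 15.03 FPKM with them, whereas the EphA sum was 50.1 to 57.9 FPKM without and 67.3 to 80.9 FPKM with them. The EphA genes did not all rise. EPHA3 carried most of their sum and rose with EPHA2, while EPHA4 fell in both cytokine comparisons and EPHA7 in the one with PM10.

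The ephrin-B ligands, which span the membrane, did not move together. EFNB3 was at 13.4 and 12.03 FPKM in normal hIECs and 15.03 and 15.1 FPKM in PM10-treated normal hIECs, against 7.52 and 7.49 FPKM in inflamed hIECs and 6.79 and 6.998 FPKM in PM10-treated inflamed hIECs, lower in each cytokine-treated library, with differences of -0.69 and -1.02. EFNB1, the most abundant ephrin, was at 22.6 and 22.5 FPKM in the normal libraries, 24.6 and 27.7 FPKM with PM10, 26.6 and 26.5 FPKM in the inflamed libraries and 21.5 and 20.7 FPKM with both. Cytokines alone went with a higher level and cytokines with PM10 with a lower one, at 0.23 without PM10 (SE 0.06298, limma adjusted p = 0.01702) and -0.29 with PM10 (SE 0.06298, adjusted p = 0.00455). The rise without PM10 was lost when normal replicate 2 or either inflamed library was left out, with adjusted p up to 0.0741. EFNB2 was not called in any comparison.

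Semaphorins fell more often than they rose. Of 17 tested, 3 were higher and 12 lower with cytokines alone, and 2 were higher and 12 lower with PM10. The first pair is 17.6% and 70.6%, beside 25.9% and 30.3% of all genes. The second is 11.8% and 70.6%, beside 25.8% and 39.6%. Both lower counts include SEMA3B, which met the minimum only without cytokines. SEMA7A, a lipid-anchored semaphorin that signals through PLXNC1 and integrins, rose, and its levels were 9.11 and 8.37 FPKM in the normal libraries, 11.4 and 10.6 FPKM with PM10, 27.3 and 28.7 FPKM in the inflamed libraries and 40.9 and 44.2 FPKM with both. The cytokine-treated libraries were all above the others, and those with PM10 were the highest. It differed by 1.58 without PM10 (SE 0.06804, limma adjusted p = 1.85e-06) and 1.86 with PM10 (SE 0.06804, adjusted p = 5.85e-07), a ratio of means of 3.21 and 3.86. SEMA3C, a secreted ligand of neuropilins, was the most abundant semaphorin, at 32.96 and 26.9 FPKM in normal hIECs and 39.3 and 37.7 FPKM in PM10-treated normal hIECs, against 65.01 and 65.3 FPKM in inflamed hIECs and 108 and 106 FPKM in PM10-treated inflamed hIECs. Its groups did not overlap in any pairing, and it differed by 1.10 without PM10 (SE 0.0856, limma adjusted p = 3.61e-05) and 1.45 with PM10 (SE 0.0856, adjusted p = 6.34e-06). SEMA3A, the secreted repellent that binds NRP1, was at 13.5 and 13.04 FPKM (normal), 14.05 and 14.5 FPKM (normal with PM10), 21.6 and 20.7 FPKM (inflamed) and 14.7 and 16.7 FPKM (inflamed with PM10). The inflamed libraries without PM10 stood above the rest, so that the cytokine difference was 0.63 (SE 0.0692, limma adjusted p = 1.97e-04) without PM10 and was not called with it, at 0.13.

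The other 4 tested class 3 members were lower with cytokines. SEMA3B, a ligand of neuropilins, was at 4.503 and 4.47 FPKM in the normal libraries, 4.03 and 3.58 FPKM with PM10, 0.962 and 0.687 FPKM in the inflamed libraries and 0.472 and 0.521 FPKM with both, with differences of -1.59 and -1.68. SEMA3D was at 3.06 and 2.84 FPKM in normal hIECs and 3.91 and 3.37 FPKM in PM10-treated normal hIECs, against 1.59 and 1.55 FPKM in inflamed hIECs and 1.22 and 1.05 FPKM in PM10-treated inflamed hIECs, with differences of -0.62 and -1.12. SEMA3E, a direct ligand of PLXND1, was at 5.55 and 4.68 FPKM (normal), 4.72 and 4.58 FPKM (normal with PM10), 3.95 and 3.92 FPKM (inflamed) and 2.35 and 2.84 FPKM (inflamed with PM10). In all 3 genes every cytokine-treated library was below every other one. SEMA3F differed by -0.23 and -0.30. Without PM10, the SEMA3E and SEMA3F differences lost their call when normal replicate 1 or inflamed replicate 1 was left out, and that of SEMA3E also without inflamed replicate 2. Both, and SEMA4B, also lost it when only the groups compared were fitted.

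All 4 tested class 6 semaphorins, which span the membrane and bind A-type plexins, fell in both cytokine comparisons. SEMA6A was at 5.87 and 5.39 FPKM in the normal libraries, 5.65 and 5.62 FPKM with PM10, 2.12 and 1.47 FPKM in the inflamed libraries and 1.598 and 1.36 FPKM with both. SEMA6C was at 5.96 and 6.44 FPKM in normal hIECs and 6.02 and 7.38 FPKM in PM10-treated normal hIECs, against 2.0001 and 1.92 FPKM in inflamed hIECs and 1.401 and 1.66 FPKM in PM10-treated inflamed hIECs. SEMA6D was at 4.78 and 3.99 FPKM (normal), 6.01 and 5.49 FPKM (normal with PM10), 2.596 and 2.76 FPKM (inflamed) and 2.65 and 1.76 FPKM (inflamed with PM10). None of them overlapped between libraries with and without cytokines, and the differences without and with PM10 were -1.25 and -1.42 for SEMA6A, -1.28 and -1.60 for SEMA6C, and -0.55 and -1.09 for SEMA6D. The SEMA6D call without PM10 was lost without normal replicate 1 or inflamed replicate 1. SEMA6B, the most abundant of the class, was at 25.9 and 28.6 FPKM in the normal libraries, 30.7 and 32.4 FPKM with PM10, 18.9 and 19.9 FPKM in the inflamed libraries and 15.3 and 14.4 FPKM with both, and it differed by -0.47 and -1.04.

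Among the class 4 semaphorins, which are membrane proteins, SEMA4B, SEMA4C and SEMA4G were lower in both cytokine comparisons, and SEMA4D and SEMA4F were not called in any. SEMA4C was at 12.3 and 10.6 FPKM in normal hIECs and 14.5 and 14.9 FPKM in PM10-treated normal hIECs, against 8.801 and 9.2996 FPKM in inflamed hIECs and 9.07 and 9.71 FPKM in PM10-treated inflamed hIECs. Its cytokine-treated libraries were below all others, and the differences were -0.31 and -0.60, of which the first lost its call without inflamed replicate 1. SEMA4G, whose exons overlap MRPL43, differed by -0.67 and -0.81. SEMA4B differed by -0.30 and -0.24 and SEMA5A by -0.40 and -0.24. With PM10 these last values of SEMA4B and SEMA5A were not called after median centring or quantile normalization, with adjusted p up to 0.152 and 0.627 over all alternatives. The SEMA4B difference without PM10 was not called without normal replicate 2 or inflamed replicate 1.

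The plexins, the receptors of semaphorins, divided evenly with cytokines alone, with 3 of 8 tested higher and 3 lower. Each share is 37.5%, beside 25.9% and 30.3% of all genes, and PLXNA4 among the higher met the minimum only with cytokines. PLXNC1, the receptor of SEMA7A, was at 2.03 and 1.67 FPKM in the normal libraries, 2.63 and 2.39 FPKM with PM10, 9.16 and 8.71 FPKM in the inflamed libraries and 10.8 and 11.2 FPKM with both. It rose in every cytokine-treated library, with ratios of means of 4.82 and 4.38, and differed by 1.80 without PM10 (SE 0.0823, limma adjusted p = 2.48e-06) and 1.77 with PM10 (SE 0.0823, adjusted p = 2.09e-06). PLXNA1, a partner of neuropilins, was at 7.597 and 7.06 FPKM in normal hIECs and 9.199 and 9.66 FPKM in PM10-treated normal hIECs, against 9.51 and 10.04 FPKM in inflamed hIECs and 12.5 and 12.7 FPKM in PM10-treated inflamed hIECs. It was higher by 0.37 and 0.38 with cytokines, although the PM10-treated normal libraries overlapped the inflamed ones without PM10. PLXNA4 rose from below 1 FPKM, by 0.60 and 0.72.

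PLXNA2, a receptor of SEMA6A, was at 3.902 and 3.63 FPKM (normal), 4.09 and 4.37 FPKM (normal with PM10), 1.097 and 1.02 FPKM (inflamed) and 1.39 and 1.59 FPKM (inflamed with PM10). PLXNB1, the receptor of SEMA4D, was at 8.36 and 5.52 FPKM in the normal libraries, 6.34 and 7.52 FPKM with PM10, 3.75 and 3.84 FPKM in the inflamed libraries and 2.04 and 2.24 FPKM with both. Both were lower with cytokines, with no overlap and with differences of -1.21 and -1.07 for PLXNA2 and of -0.70 and -1.33 for PLXNB1. PLXNA3 fell by smaller amounts, with -0.40 and -0.61. PLXNB2, the most abundant plexin, was at 35.7 and 37.8 FPKM in normal hIECs and 43.1 and 53.9 FPKM in PM10-treated normal hIECs, against 42.2 and 47.1 FPKM in inflamed hIECs and 54.6 and 51.3 FPKM in PM10-treated inflamed hIECs. Among the groups compared, only PM10-treated normal and PM10-treated inflamed hIECs overlapped, and it was not called in any comparison. PLXND1 was called only with PM10 present, at 0.37 (SE 0.0771, limma adjusted p = 0.00391).

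NRP2, a co-receptor for SEMA3C and SEMA3F, rose with cytokines and its levels were 17.4 and 17.7 FPKM in the normal libraries, 17.99 and 17.4 FPKM with PM10, 55.5 and 56.9 FPKM in the inflamed libraries and 64.4 and 63.01 FPKM with both. The libraries without cytokines lay within 1 FPKM of each other and the cytokine-treated ones stood well above them. The difference was 1.63 without PM10 (SE 0.0462, limma adjusted p = 2.49e-07) and 1.79 with PM10 (SE 0.0462, adjusted p = 1.17e-07), a ratio of means of 3.204 and 3.596. NRP1, the co-receptor for SEMA3A, differed by 0.22 without PM10, which was not called, and by 0.32 (SE 0.0889, limma adjusted p = 0.0153) with it, a call that was lost without PM10-treated normal replicate 1 or PM10-treated inflamed replicate 2.

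The netrins moved in opposite directions. NTN1, the secreted ligand of DCC, neogenin and UNC5 receptors, was at 1.63 and 1.52 FPKM in the normal libraries, 2.603 and 2.49 FPKM with PM10, 6.096 and 6.18 FPKM in the inflamed libraries and 8.22 and 8.67 FPKM with both. Its groups did not overlap in any pairing, and it differed by 1.47 without PM10 (SE 0.0667, limma adjusted p = 2.36e-06) and 1.41 with PM10 (SE 0.0667, adjusted p = 2.25e-06). NTN4, a netrin of basement membranes, was at 4.996 and 3.92 FPKM in normal hIECs and 4.81 and 5.02 FPKM in PM10-treated normal hIECs, against 1.56 and 1.399 FPKM in inflamed hIECs and 2.39 and 2.26 FPKM in PM10-treated inflamed hIECs. It was lower in every cytokine-treated library, with differences of -1.13 and -0.83. UNC5B was the most abundant netrin receptor, at 27.1 and 26.4 FPKM (normal), 28.3 and 29.4 FPKM (normal with PM10), 53.8 and 56.3 FPKM (inflamed) and 54.3 and 51.9 FPKM (inflamed with PM10), and every cytokine-treated library was above every other one. It differed by 1.01 without PM10 (SE 0.05099, limma adjusted p = 4.17e-06) and 0.86 with PM10 (SE 0.05099, adjusted p = 6.52e-06). UNC5C rose by 0.61 and 0.71. UNC5D was lower, at -0.38 and -0.81, and its call without PM10 was lost without normal replicate 1, either inflamed library or either PM10-treated inflamed library, and with quantile normalization or the replicate block. Among the receptors outside the family rule, DCC was listed at 0 in every library and NEO1, neogenin, was at 11.1 and 10.9 FPKM in the normal libraries, 11.5 and 10.9 FPKM with PM10, 14.4 and 14.7 FPKM in the inflamed libraries and 11.9 and 12.8 FPKM with both.

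The slit ligands and their receptors differed in direction. SLIT3 was at 12.7 and 13.04 FPKM in the normal libraries, 10.5 and 10.7 FPKM with PM10, 4.44 and 4.54 FPKM in the inflamed libraries and 4.297 and 4.38 FPKM with both, and the cytokine-treated libraries lay together below the others. It differed by -1.34 without PM10 (SE 0.0552, limma adjusted p = 1.43e-06) and -1.12 with PM10 (SE 0.0552, adjusted p = 2.77e-06). SLIT2, the more abundant ligand, was at 20.9 and 18.9 FPKM in normal hIECs and 19.5 and 19.3 FPKM in PM10-treated normal hIECs, against 21.5 and 23.3 FPKM in inflamed hIECs and 16.7 and 16.8 FPKM in PM10-treated inflamed hIECs. Only the libraries with both agents were below the rest, and the cytokine difference was not called without PM10, at 0.17, and was -0.20 (SE 0.0645, limma adjusted p = 0.0275) with it. That call was lost without either PM10-treated normal library or either PM10-treated inflamed library. ROBO1, a receptor of both slits, was at 15.1 and 14.2 FPKM (normal), 16 and 14.9 FPKM (normal with PM10), 39.5 and 39.3 FPKM (inflamed) and 39.7 and 38.9 FPKM (inflamed with PM10). It rose in every cytokine-treated library, by 1.37 without PM10 (SE 0.0563, limma adjusted p = 1.40e-06) and 1.29 with PM10 (SE 0.0563, adjusted p = 1.47e-06). ROBO2 differed by 0.85 and 0.74, and its calls were lost without inflamed replicate 2 in the first and without PM10-treated normal replicate 1 or either PM10-treated inflamed library in the second. ROBO3 was between 12.9 and 16.2 FPKM and was not called.

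**Figure D3:**
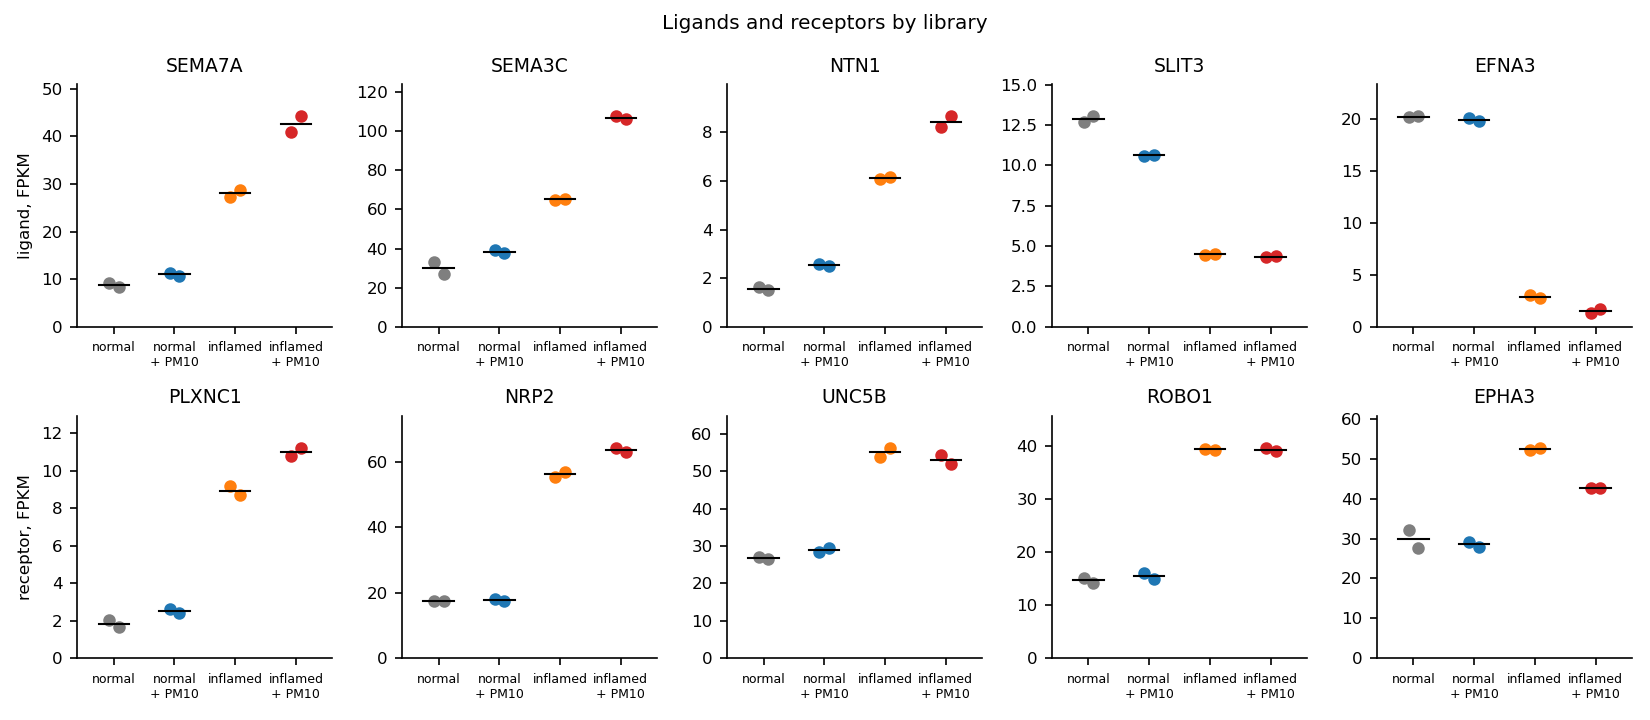
FPKM in each of the 8 libraries for 5 ligands and a receptor of each, with 1 point for each library and the 4 groups along the horizontal axis. SEMA7A with PLXNC1, SEMA3C with NRP2 and NTN1 with UNC5B were higher in all cytokine-treated libraries, while SLIT3 and EFNA3 were lower there and ROBO1 and EPHA3 higher.

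Other genes of these pathways were taken from a list of effectors and co-receptors, of which 46 of 55 in the files were tested. With cytokines alone 15 were higher and 14 lower, or 32.6% and 30.4%, beside 25.9% and 30.3% of all genes. With PM10 16 were higher and 16 lower, or 34.8% each, beside 25.8% and 39.6% of all genes. The median difference was 0.06 and 0.04. The 3 largest rises without PM10 were those of L1CAM, an adhesion molecule that joins NRP1 in SEMA3A receptors, MICAL2, an actin-oxidising enzyme, and ENAH, an actin assembly factor. L1CAM stood at 2.32 and 2.33 FPKM in the normal libraries, 2.54 and 2.43 FPKM with PM10, 18.7 and 19.2 FPKM in the inflamed libraries and 23.1 and 23.7 FPKM with both, and its difference was 2.59. MICAL2 differed by 1.05 and ENAH by 0.71. The 3 largest falls were those of TIAM1, an activator of Rac, FLRT2, a ligand of UNC5 receptors, and GPC1, a slit-binding proteoglycan. They differed by -1.30, -1.18 and -1.11. Because EPHB2 and EPHB3 are known targets of Wnt signalling in crypts, 15 crypt and Wnt genes were also read, of which 9 were tested. With cytokines alone 3 rose and 4 fell, or 33.3% and 44.4%, beside 25.9% and 30.3% of all genes. With PM10 2 rose and 3 fell, or 22.2% and 33.3%, beside 25.8% and 39.6%. SOX9 was at 14.97 and 13.5 FPKM in normal hIECs and 14.1 and 13.6 FPKM in PM10-treated normal hIECs, against 3.88 and 3.95 FPKM in inflamed hIECs and 3.66 and 3.699 FPKM in PM10-treated inflamed hIECs. AXIN2, a direct Wnt target, was at 1.46 and 1.16 FPKM in the normal libraries, 1.55 and 1.48 FPKM with PM10, 0.6501 and 0.756 FPKM in the inflamed libraries and 0.586 and 0.565 FPKM with both. LGR5, the crypt stem cell receptor, was at 2.63 and 2.01 FPKM (normal), 2.33 and 2.31 FPKM (normal with PM10), 5.68 and 5.26 FPKM (inflamed) and 8.28 and 7.92 FPKM (inflamed with PM10). SOX9, AXIN2 and SMOC2 were called lower in both cytokine comparisons, and LGR5 and CD44 higher. TCF7 was called higher and MYC lower with cytokines alone, by 0.63 and -0.34, and neither was called with PM10. LEF1 and ZNRF3 were not called in either. The relation of EPHB3 to these genes was not tested.

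PM10 changed fewer guidance genes. In normal hIECs, 5 members were higher and 2 lower with PM10, or 9.1% and 3.6% of those tested, against 5.51% and 3.72% of all genes. The split was 5 higher and 3 lower after median centring and 4 and 3 after quantile normalization. The higher genes were NTN1, PLXNA1, SEMA4C, SEMA3C and SEMA7A, and the lower ones EPHA1 and SLIT3. NTN1 differed by 0.46 (SE 0.0667, limma adjusted p = 0.00997). PLXNA1 differed by 0.33 (SE 0.0618, limma adjusted p = 0.0238), and SEMA7A by 0.30 (SE 0.06804, limma adjusted p = 0.0382). SEMA3C and SEMA4C differed by 0.36 and 0.34, and EPHA1 and SLIT3 by -0.52 and -0.26. None of the 7 was called when the fit held only these 4 libraries, where 23 genes in all were called instead of 1311, and none was called without either PM10-treated normal library.

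In inflamed hIECs, PM10 went with 8 higher and 12 lower members, or 14.5% and 21.8% of those tested, where 6.22% and 9.02% of all genes were called. NTN1, PLXNA1, SEMA3C and SEMA7A were among the higher genes here as they were in normal hIECs. These comparisons contrast different libraries, but both take the spread of each gene from the same fit over all 8. Their calls are therefore not independent. SEMA3C rose by 0.71 (SE 0.0856, limma adjusted p = 0.00281) and SEMA7A by 0.59 (SE 0.06804, limma adjusted p = 0.002403). NTN1 and PLXNA1 rose by 0.40 and 0.33. The other higher genes were EPHB1 at 0.55, NTN4 at 0.42, EPHB4 at 0.23 and NRP2 at 0.18. In NTN4 and EPHB4 this was opposite to the difference with cytokines alone, and the libraries with both agents stayed below those without cytokines.

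The lower genes were led by EPHA7, at -0.91 (SE 0.0912, limma adjusted p = 0.00144), and EFNA3, at -0.63 (SE 0.0786, limma adjusted p = 0.00306). PLXNB1, EPHB3, EFNA2 and SEMA3E were lower, with differences of -0.61, -0.51, -0.48 and -0.46, in the direction of their cytokine difference. EPHA1, SEMA3A, SLIT2, SEMA6B, EFNB1 and EPHA3 were lower, with differences of -0.42, -0.41, -0.40, -0.36, -0.32 and -0.29. Of these, SEMA6B was also called lower in both cytokine comparisons. EPHA1 was lower with PM10 with and without cytokines. EPHA7, SEMA7A, SEMA3C and EFNA3 were the 4 of these 20 genes called under all 17 alternatives. With 1 inflamed or PM10-treated inflamed library left out, 2 or 3 members were higher and 3 to 6 lower.

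**Figure D4:**
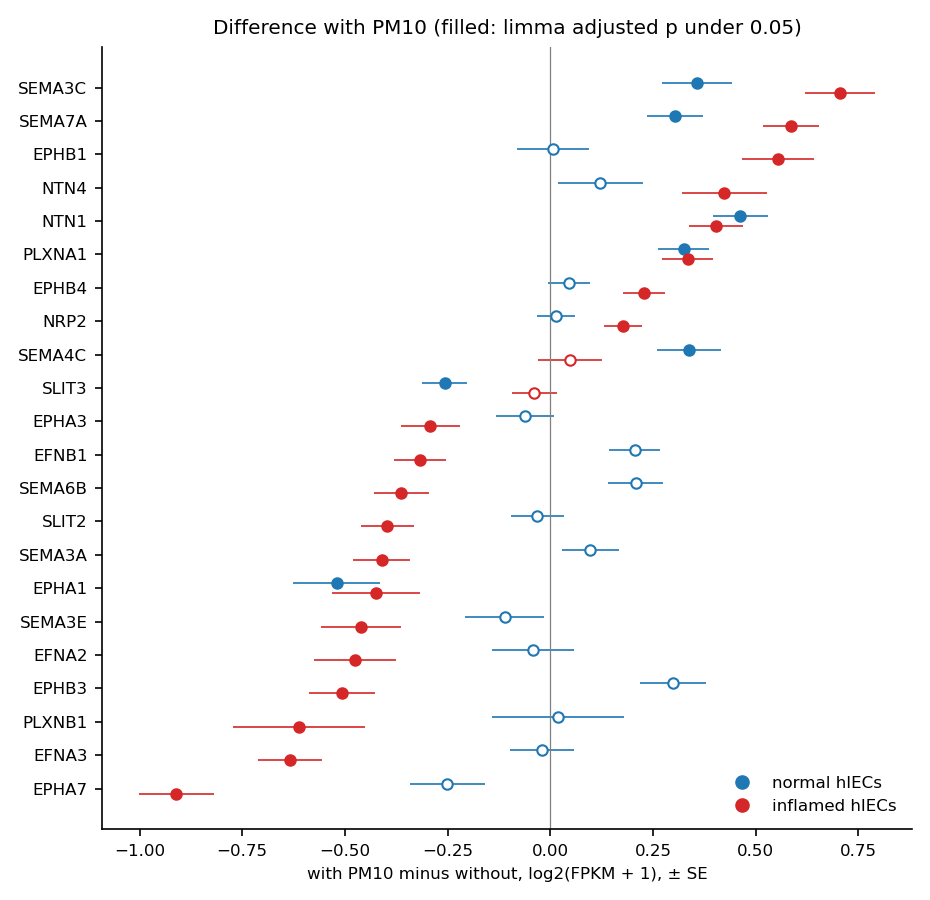
Difference with PM10 on the log2(FPKM + 1) scale, with bars of 1 SE, for the 22 guidance genes called in either PM10 comparison or in the interaction, in normal and in inflamed hIECs. Filled points were called, which was so for 7 genes in normal and 20 in inflamed hIECs.

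The dependence of the PM10 difference on cytokines was tested as an interaction, which uses all 8 libraries and so shares them with every comparison above. It was called for 1 member upward, EPHB1, and 6 downward, against 2.11% and 4.48% of all genes. Median centring gave 1 and 7, and quantile normalization 0 and 5. EPHB1 was called at 0.55 (SE 0.125, limma adjusted p = 0.0462), with little difference by PM10 in normal hIECs (0.01). It met the minimum only with cytokines, so this interaction is given as a description. Its libraries without cytokines were below 1 FPKM, where this scale understates change, and the call was lost with a pseudocount of 0.1. EPHB3 had the largest value, -0.81 (SE 0.113, limma adjusted p = 0.0101), being 0.30 with PM10 in normal hIECs, which was not called, and -0.51 in inflamed hIECs. EPHA7, EFNA3, SEMA6B, EFNB1 and SEMA3A had interactions of -0.66, -0.61, -0.57, -0.52 and -0.51. No interaction was called under every alternative, and without PM10-treated normal replicate 2 or inflamed replicate 1 none was.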

How the data were processed

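The authors sequenced poly-A RNA (TruSeq, not strand-specific) and deposited 1 FPKM table per library; per the labels and methods, reads were trimmed with Cutadapt and Sickle, aligned to GRCh38 with HISAT2 and quantified with StringTie. The annotation release was not given in the sources used here. Read counts and depth are unknown, so no counting interval is given; the lowest FPKM above 0 was 0.164 to 0.228 over the libraries, and low values are the least precise. The authors' pairing of libraries to groups was taken from the sample titles.

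From these deposited FPKM values, log2(FPKM + 1) was fitted with limma 3.58.1 (R 4.3.3; 1 mean per group, all 8 libraries, trend of variance on mean) over the 14206 genes that reached 1 FPKM in 2 or more libraries, with Benjamini-Hochberg adjustment within each comparison and a threshold of 0.05. The fit was tested on simulated data. Library values are given for members that were called with a cytokine difference of at least 1, called in a PM10 comparison or the interaction, or most abundant in their family, and for a few label and pathway genes. Replicate numbers did not pair libraries: differences between replicates correlated at -0.00151 to 0.0793 between groups. With 2 libraries per group an exact permutation test cannot go below p = 0.333. Alternatives changed the pseudocount, filter, scaling, libraries fitted, variance trend, replicate block and gene set. The members, lists and tests were chosen with earlier results of these data known. Exon overlaps were read from GENCODE 44, which held all 68 members, and promoter sequences from RefSeq.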

Additional observations from a re-analysis of the deposited data

Results flagged for a closer look

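In 7 guidance genes the PM10 difference in inflamed hIECs differed from that in normal hIECs by the limma interaction test. The interaction on the log2(FPKM + 1) scale was -0.81 for EPHB3, -0.66 for EPHA7, -0.61 for EFNA3, -0.57 for SEMA6B, -0.52 for EFNB1, -0.51 for SEMA3A and 0.55 for EPHB1, with adjusted p between 0.0101 and 0.0462. In EPHB3, SEMA6B and EFNB1 the libraries of normal hIECs with PM10 were above those without it and the libraries of inflamed hIECs with PM10 below those without it. EPHB1 met the minimum only with cytokines, so its interaction is given as a description. Between normal hIECs with and without PM10, EPHB1 overlapped at levels below 1 FPKM, where this scale understates change. Between the same groups EFNA3 lay within 1 FPKM. SEMA3A was higher with PM10 by less than 2 FPKM and EPHA7 was lower with it, by less than in inflamed hIECs. EPHB3 was called under 14 of 16 alternatives, EPHB1 under 3 of 15 and the other 5 genes under 9 to 11 of 16.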

How the results depend on the processing

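Over 17 alternatives, the 122 calls of members gave 2053 values, of which 1823 kept direction and call, 230 kept direction and lost the call, and 0 reversed. Of the calls with cytokines, 35 of 43 without PM10 and 40 of 45 with PM10 held under every alternative. With PM10 0 of 7 did in normal hIECs and 4 of 20 in inflamed hIECs, and for the interaction 0 of 7.

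In normal hIECs with PM10, the 5 higher members became 2 with no filter, 2 with no variance trend, 3 with the replicate block and 0 with only the groups compared, and the 2 lower ones became 0 in that last fit. The 1 higher interaction became 0 with a pseudocount of 0.1, no filter, a mean of at least 2 FPKM, quantile normalization or the replicate block. The replicate block, with numbers that do not pair the libraries, changed no other count by over 1.5 times. With 1 library left out, the higher and lower counts ranged from 15 to 18 and 21 to 27 with cytokines alone, 14 to 17 and 26 to 29 with cytokines under PM10, 0 to 8 and 0 to 2 with PM10 in normal hIECs, 2 to 9 and 3 to 12 with PM10 in inflamed hIECs, and 0 to 1 and 0 to 10 for the interaction. The 8 and the 10 came without normal replicate 1, and the 0 of both directions without either PM10-treated normal library in the first case and without PM10-treated normal replicate 2 or inflamed replicate 1 in the second. The cause was not tested. Depth is unknown, and members near 1 FPKM rest on low values.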

Other observations

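The members' FPKM summed to 523 to 592 in the 4 libraries without cytokines and 647 to 695 in the 4 with them, while more members were called lower than higher. The receptors with the highest level per length in each family, EPHA3, NRP2, UNC5B and ROBO1, were all higher with cytokines, except PLXNB2, which was not called. SMOC2, a secreted protein of the crypt base, was at 26.9 to 33.9 FPKM without cytokines and 1.55 to 3.04 FPKM with them, and CD44, an adhesion receptor and Wnt target, was at 3.20 to 3.71 FPKM without and 13.98 to 27.7 FPKM with them.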
